A study of Mus musculus with 2 samples.

Results

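Cycling alveolar macrophages were studied here in 2 libraries of live lung cells from adult mice. A cell counted as an alveolar macrophage when at least 4 of the 8 genes Plet1, Krt79, Atp6v0d2, Flvcr2, Kcnip4, Mertk, Lpl and Chil3 were detected and the T cell gene Cd3e, the B cell gene Cd79a and the endothelial gene Ptprb were not. It counted as cycling when at least 4 of the 8 genes Top2a, Mki67, Birc5, Nusap1, Cenpf, Ube2c, Kif11 and Rrm2 were detected as well. This gave 288 cycling alveolar macrophages among 6665 alveolar macrophages and 29837 lung cells past the filters. Of these, 111 came from the library labelled GFI1 KO and 177 from the library labelled GFI1 WT, called KO-labelled and WT-labelled below. They were compared with 5245 alveolar macrophages without a count of any of the 8 cycling genes, called non-cycling below. The cells were chosen by their own RNA counts, so every RNA difference between cycling and non-cycling cells is a description.

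Alveolar macrophages live in the air spaces, clear surfactant and inhaled particles, and depend on the cytokine GM-CSF and the transcription factor PPARγ. In adult mice at rest they are kept up largely by division within the lung, with little input from blood monocytes. A dividing cell first switches on the genes for DNA replication, which are E2F targets, and later the genes for the spindle and chromosome segregation, many of which are controlled through CCAAT boxes and the cell cycle homology region (CHR) of their promoters. The factor c-MAF is known to restrain macrophage self-renewal, and KLF4 and MYC to favour it.

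The study compared total lung cells of GFI1 KO mice, germline knockouts of the transcriptional repressor GFI1, with those of GFI1 WT mice, all kept on the C57BL6/J background. Lungs were perfused and digested with collagenase and DNase, live cells were sorted by exclusion of a Hoechst stain, and libraries were made with the 10x Genomics 3′ chemistry. The study's methods speak of duplicates, of which 1 library per genotype was analysed here. The libraries held 10700 called cells with 116825535 gene counts in the KO-labelled library and 19515 cells with 162599284 in the WT-labelled library, counted as unique molecular identifiers (UMIs). With 1 library per label there is no test and no spread between mice, and a difference of genotype cannot be told apart from a difference between mice or libraries. All intervals are exact 95% intervals and cover counting error only. Values are given for the library labelled GFI1 KO first and for that labelled GFI1 WT second unless stated. Levels are UMIs of a gene per 1000000 UMIs summed over the cells of a group (CPM), without ribosomal, mitochondrial and Gm- genes.

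Gfi1, the targeted gene, had 0 UMIs in the cycling alveolar macrophages of both libraries, which allows a level of up to 1.63 CPM in the KO-labelled library and 0.986 CPM in the WT-labelled library from 3 counts. Non-cycling cells had 37 Gfi1 UMIs (1.58 CPM) in the KO-labelled library and 9 (0.237 CPM) in the WT-labelled library. Over all lung cells the level was 3.60 and 3.46 CPM. Over all cells Gfi1 RNA was therefore not lower in the library labelled GFI1 KO, and since the chemistry reads the 3′ end of a transcript and the deleted part of the gene is not given in the sources used here, Gfi1 counts do not check the labels. The paralog Gfi1b had 3 UMIs in the cycling cells of each library. Cell barcodes occurring in both libraries numbered 74, and 1 cycling cell in the KO-labelled library carried such a barcode.

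The number of cycling genes detected per alveolar macrophage had 2 peaks, at 0 and at 8 of 8. All 8 were detected in 55 of the 111 cycling cells (49.5%, 39.9 to 59.2) in the KO-labelled library and in 82 of 177 (46.3%, 38.8 to 54.0) in the WT-labelled library. Cells just inside the threshold, with 4 of 8 genes, numbered 12 and 23, and cells just outside, with 3 of 8, numbered 20 and 25. The summed level of the 8 genes was 751 and 866 CPM in the former and 379 and 395 CPM in the latter. Few cells lay near the threshold on the alveolar macrophage genes, with 1 and 1 cycling cells at 4 of 8, and all 8 of those were detected in 79.3% and 68.4% of cycling cells and in 77.8% and 73.4% of non-cycling cells. Just outside that threshold, with 3 of 8 alveolar macrophage genes and at least 4 cycling genes, lay 4 and 6 cells. The exclusion genes removed far more cells in the WT-labelled library. Of the cells past both thresholds, 3 of 114 (2.63%, 0.546 to 7.50) in the KO-labelled library and 61 of 238 (25.6%, 20.2 to 31.7) in the WT-labelled library carried Cd3e, Cd79a or Ptprb and were left out, and of those past the alveolar macrophage threshold with no cycling gene 3.05% and 15.2% were. In the WT-labelled library the 61 cells had a median of 25414 UMIs, and 15 held Cd3e, 23 Cd79a and 28 Ptprb. In that order, 3, 7 and 13 of them held a single UMI of the gene and none of the other exclusion genes. Top2a, which untangles DNA before segregation, was at 1179 and 922 CPM in the cycling cells, and Mki67, the coat of mitotic chromosomes, at 807 and 690 CPM. The plot of cells by number of cycling genes shows both peaks.

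**Figure D1:**
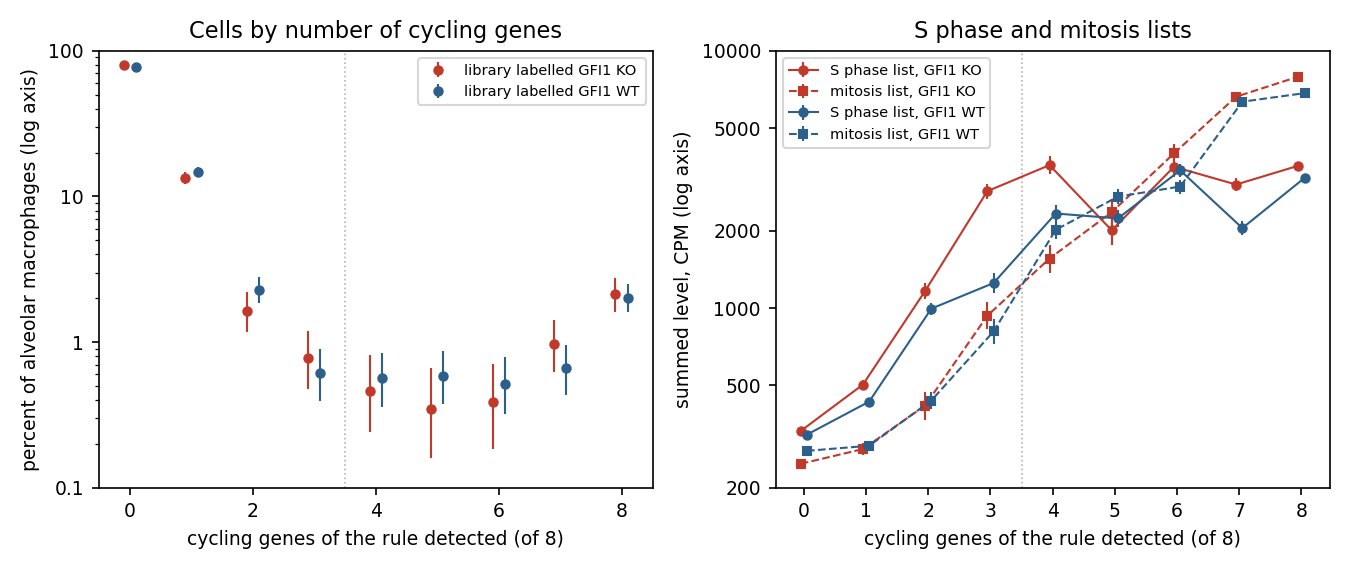
Left, percent of alveolar macrophages (log axis) by the number of the 8 cycling genes detected, with 95% Clopper-Pearson intervals; right, summed level of the S phase list and the mitosis list in CPM (log axis) in the same cells, with 95% Poisson intervals. Red is the library labelled GFI1 KO, blue that labelled GFI1 WT, and the dotted line is the threshold between 3 and 4 genes. Cells with 3 genes carried the S phase list at 2846 and 1251 CPM, against 3573 and 3203 CPM in cells with all 8. They carried the mitosis list at 934 and 810 CPM, against 7933 and 6844 CPM in cells with all 8.

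Of all alveolar macrophages, 4.30% (3.55 to 5.15) cycled in the KO-labelled library and 4.34% (3.73 to 5.01) in the WT-labelled library. The difference was -0.0388 percentage points, with an interval from -1.04 to 1.01, so a difference within about that range was not detectable with these cell numbers. Cycling cells were deeper than non-cycling ones, with a median of 18519 and 19947 UMIs per cell against 13147 and 13445. After each cell was thinned to 5000 UMIs, and the rule applied anew, the shares were 3.56% and 3.48%. With the cells carrying an exclusion gene kept, they were 4.28% and 4.91%, a difference of -0.632 percentage points (-1.61 to 0.394). Among all other lung cells 1.57% and 1.66% had at least 4 cycling genes, 3 and 61 of these being the cells left out for an exclusion gene. Alveolar macrophages thus made up 47.2% (40.7 to 53.8) and 41.1% (36.4 to 45.9) of all lung cells with at least 4 cycling genes while being 24.6% and 21.1% of all cells. The order of the libraries in the former share rested on the exclusion genes, since with the cells carrying them counted as alveolar macrophages it was 48.5% (42.0 to 55.1) and 55.2% (50.4 to 59.98). The median number of genes per cell was 5103 and 5212 in cycling against 3908 and 3994 in non-cycling cells, and 2475 and 2451 against 2278 and 2286 at the fixed depth. Mitochondrial genes took a median of 3.68% and 3.96% of UMIs in cycling cells and 4.25% and 4.38% in non-cycling cells.

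The label alveolar macrophage was checked on genes and proteins that the rule did not use. Siglecf, a lectin of alveolar macrophages, was at 146 and 129 CPM in cycling alveolar macrophages and at 3.60 and 3.09 CPM in the other cycling lung cells. Marco, a scavenger receptor, was at 284 and 273 CPM against 0 and 0.343 CPM. An antibody tag for the protein CD11c gave a median of 1307 and 1301 UMIs per cycling alveolar macrophage, against 6 and 20 per other cycling lung cell and 3 and 6 per B cell, the last being a background level. The study's methods describe antibody tags that mark the samples of sorted T cells and thymic precursors, and none for lung cells. The 18 tags counted in the lung libraries were used as deposited. At least 100 CD11c UMIs were found in 110 of 111 and 177 of 177 cycling alveolar macrophages. The CD11c protein was thus found on nearly every cycling alveolar macrophage. It was not confined to them, since the upper quartile over the other cycling lung cells was 14 and 276 UMIs. Whether the tag separates them from other cells with CD11c was not tested. Free RNA in the droplets set a floor for RNA as well, and Plet1, a surface protein of alveolar macrophages, was at 2.37 and 4.25 CPM in B cells against 939 and 1078 CPM in the cycling cells.

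The S phase and DNA replication list was higher in cycling than in non-cycling cells for all 26 genes, each by at least 2-fold in both libraries. Its median ratio was 14.7 and 10.6, against a median of 1.08 and 1.07 over all genes tested. Of all 11178 genes tested in the KO-labelled library 11.6% were at least 2-fold higher and 4.05% at least 2-fold lower in cycling cells, and of 12466 in the WT-labelled library 11.3% and 5.38%. Of the 11155 tested in both libraries, 8.21% were at least 2-fold higher and 0.896% at least 2-fold lower in both. The rule used this contrast, and nothing is read from these counts. Pcna, the sliding clamp of DNA polymerases, was at 651 and 602 CPM in cycling cells against 119 and 110 CPM in non-cycling cells, ratios of 5.45 (5.09 to 5.83) and 5.49 (5.19 to 5.798). The helicase subunit Mcm5 was at 99.2 and 87.4 CPM against 6.46 and 7.31 CPM. Ccne2, cyclin E2, which starts S phase, was at 95.9 and 90.4 CPM against 1.496 and 1.736 CPM. Members that non-cycling cells hardly expressed, such as Ccne2, had the higher ratios of the list, and those with a level in non-cycling cells, such as Pcna and Mcm3, the lower ones. The lowest ratio in each library was 5.31 for Mcm3, another helicase subunit, and 4.32 for Cdt1, a licensing factor.

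All 30 genes of the mitosis list were at least 2-fold higher in cycling cells of both libraries, with a median ratio of 87.2 and 77.9. Cdk1, the kinase that drives entry into mitosis, was at 243 and 224 CPM against 2.61 and 2.84 CPM, ratios of 93.3 (71.3 to 124) and 78.8 (64.2 to 97.4). Its partner Ccnb2, cyclin B2, was at 236 and 204 CPM against 2.95 and 3.81 CPM. Cdc20, which activates the anaphase-promoting complex, was at 101 and 76.9 CPM against 0.299 and 0.421 CPM. The lowest ratios belonged to Bub1b, a spindle checkpoint kinase, at 4.71 and 4.10, with a level of 41.4 and 45.3 CPM in non-cycling cells. Together the S phase list, the mitosis list and the 8 cycling genes took 1.39% and 1.19% of UMIs in cycling cells and 0.0581% and 0.0601% in non-cycling cells.

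Promoters of these genes are shown because their members were high together in the same cells. RefSeq sequences of GRCm38.p6 were matched by symbol, 25 of 30 mitosis genes and 21 of 26 S phase genes having a window, and the 250 bases before the start were searched on both strands. A CCAAT box, CCAAT or ATTGG, was present in 84.0% of mitosis genes, 66.7% of S phase genes and 34.5% of all 27025 genes. A CHR, taken as TTTGAA or TTTAAA or the complement TTCAAA, was present in 44.0%, 23.8% and 25.5%, and an E2F core, taken as GCGGGAA or GGCGGGA or GCGCGAA or the complement of any of these, in 24.0%, 61.9% and 12.4%. The cores GCGGGAA and GGCGGGA overlap each other. Box and CHR occurred together in 40% of mitosis genes, 14.3% of S phase genes and 8.995% of all genes. The list of alveolar macrophage identity genes had a CCAAT box in 31.8%, a CHR in 18.2% and an E2F core in 4.55% of its 22 genes with a window. The last 120 bases before the start are printed 5′ to 3′ on the gene's strand, with CCAAT boxes, CHR matches and E2F cores in capitals, for 4 genes of division and then for 2 replication helicase subunits. They lie at chr11:99024190-99024309 (Top2a, minus strand), chr4:118437344-118437463 (Cdc20, minus), chr2:164769809-164769928 (Ube2c, plus), chr7:122159315-122159434 (Plk1, plus), chr8:75109389-75109508 (Mcm5, plus) and chr1:128359706-128359825 (Mcm6, minus). A match describes the letters and is not a measured binding site.
Top2a: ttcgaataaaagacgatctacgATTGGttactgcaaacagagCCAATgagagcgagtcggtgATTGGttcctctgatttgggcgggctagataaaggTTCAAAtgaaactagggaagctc
Cdc20: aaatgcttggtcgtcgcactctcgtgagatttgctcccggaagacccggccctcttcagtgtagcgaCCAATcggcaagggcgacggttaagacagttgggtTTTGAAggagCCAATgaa
Ube2c: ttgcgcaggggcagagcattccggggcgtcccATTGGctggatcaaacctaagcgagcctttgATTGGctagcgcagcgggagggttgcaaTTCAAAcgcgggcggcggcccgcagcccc
Plk1: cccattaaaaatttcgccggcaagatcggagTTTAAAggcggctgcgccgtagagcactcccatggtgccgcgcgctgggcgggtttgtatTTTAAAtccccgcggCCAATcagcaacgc
Mcm5: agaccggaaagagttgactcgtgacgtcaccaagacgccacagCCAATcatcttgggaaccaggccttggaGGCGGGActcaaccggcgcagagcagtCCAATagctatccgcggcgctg
Mcm6: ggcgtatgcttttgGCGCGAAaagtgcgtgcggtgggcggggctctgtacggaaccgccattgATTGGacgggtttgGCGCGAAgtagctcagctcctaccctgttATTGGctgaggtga
All 6 stretches held at least 1 CCAAT box, the 4 of Top2a, Cdc20, Ube2c and Plk1 held a CHR and no E2F core, and those of Mcm5 and Mcm6 held an E2F core and no CHR. They were chosen for these letters after the matches were seen, and other stretches read in the same way differed. That of Birc5 held an E2F core but neither a CCAAT box nor a CHR, that of Ccnb2 held CCAAT boxes but no CHR, that of Cenpf held an E2F core but no CHR, that of Nusap1 held none of the motifs, and those of Rrm2, Pcna and Tyms held no E2F core. The stretch of Mki67 held CHR matches but no CCAAT box.

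Of the 24 genes for histones, chromatin proteins and tubulins, 23 were at least 2-fold higher in cycling cells of both libraries, with a median ratio of 7.02 and 6.52. Stmn1, a regulator of microtubules, was at 1426 and 1301 CPM against 34.2 and 30.6 CPM, ratios of 41.7 and 42.5, and had a UMI in 111 of 111 and 174 of 177 cycling cells. Hmgb2, a chromatin protein, had ratios of 12.5 and 13.01, and H2az1, a histone variant, of 3.76 and 3.86. The exception was H1f2, a linker histone, at 112 and 86.8 CPM against 92.2 and 95.7 CPM. Of 20 genes of nucleotide synthesis, 12 were at least 2-fold higher in both libraries. These included Tk1, thymidine kinase, with ratios of 66.0 and 48.5, and Tyms, thymidylate synthase, with 20.7 and 15.6. Impdh1 and Gmps, of purine synthesis, were closer to the non-cycling level, with Impdh1 at ratios of 0.736 and 0.736 and Gmps at 1.20 and 1.05.

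Among 27 cell cycle regulators with enough UMIs in both libraries, 15 were at least 2-fold higher in cycling cells of both. The transcription factors of the late cycle were among them, with ratios of 179 and 126 for Foxm1, which drives mitotic genes, and of 426 and 389 for E2f8, a repressor of E2F targets. Inhibitors of D-type cyclin kinases were higher as well, since Cdkn2c was at 69.4 and 56.8 CPM against 1.33 and 1.13 CPM and Cdkn2d at 88.3 and 76.6 CPM against 9.75 and 7.31 CPM. Cdkn2a, whose products are p16 and p19ARF, was at 10.3 and 19.1 CPM against 1.54 and 2.45 CPM, with a UMI in 17 of 111 and 46 of 177 cycling cells. The inhibitors Cdkn2c and Cdkn2d were thus high in cells that were also high in mitotic genes. Ccnd2, a D-type cyclin that responds to growth signals, went the other way, at 409 and 446 CPM in cycling against 701 and 694 CPM in non-cycling cells, ratios of 0.583 (0.541 to 0.627) and 0.643 (0.608 to 0.679). The antiproliferative gene Btg1 had ratios of 0.612 and 0.661, and Cdkn1a, encoding p21, ratios of 1.23 and 1.24. The plot of ratios in both libraries sets these groups side by side.

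**Figure D2:**
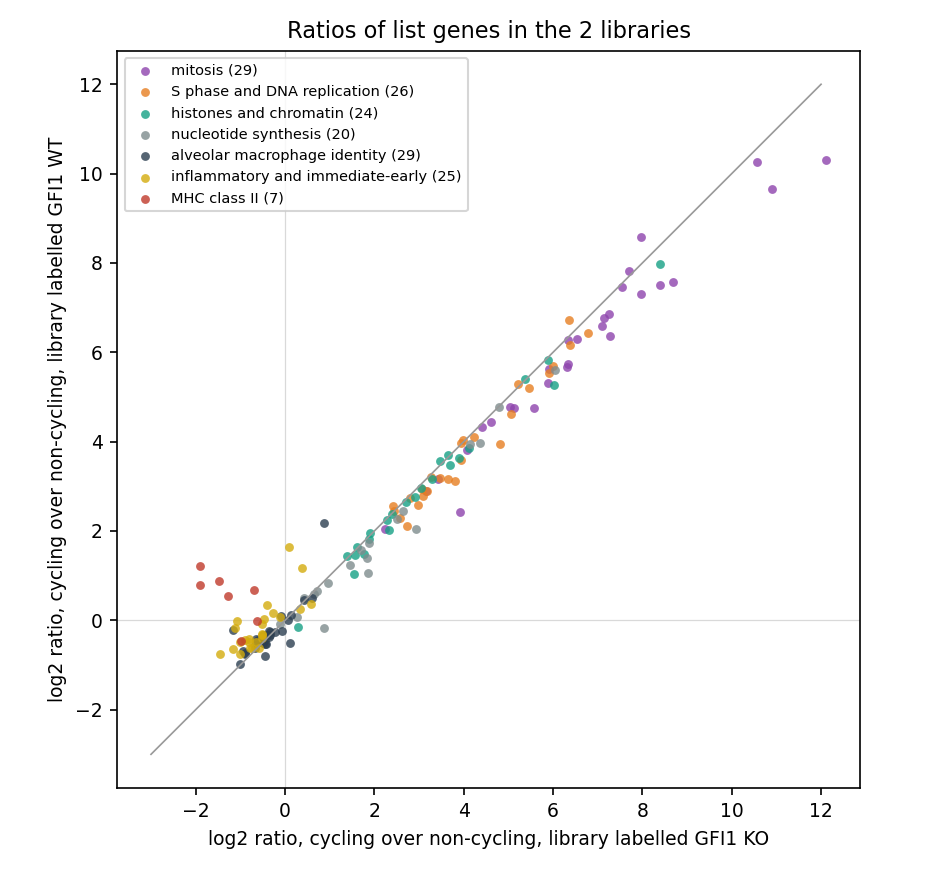
Log2 ratio of CPM in cycling over non-cycling alveolar macrophages for genes of 7 lists, in the library labelled GFI1 KO (x axis) and that labelled GFI1 WT (y axis), with the number of genes drawn in brackets and the line of equal ratios in grey; Bub1, with 0 UMIs in non-cycling cells in the KO-labelled library, is not drawn. Mitosis, S phase and chromatin genes lie near the line at high ratios, and most alveolar macrophage genes near or just below 0. H2-Aa, H2-Ab1 and H2-Eb1 of MHC class II lie below 0 in the KO-labelled library and above 0 in the WT-labelled library.

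Cycling cells kept the RNA of alveolar macrophage genes at levels close to, and mostly somewhat below, those of non-cycling cells. Of 29 identity genes with enough UMIs in both libraries, 22 had a ratio below 1 in both, 5 above 1 in both, and none was past 2-fold in both. Of all 11155 genes tested in both libraries, 30% had a ratio below 1 in both and 47.7% above 1 in both. The median ratio was 0.739 and 0.783. Ear2, an eosinophil-associated ribonuclease of alveolar macrophages, was at 759 and 696 CPM against 1522 and 1373 CPM, ratios of 0.499 (0.473 to 0.526) and 0.507 (0.485 to 0.530). Fabp1, a fatty acid binding protein, had ratios of 0.523 and 0.618, and the mannose receptor Mrc1 ratios of 0.656 and 0.741. Plet1, a gene of the rule, had ratios of 0.560 and 0.607. Pparg, the master regulator of the lineage, was nearer to the non-cycling level at 525 and 446 CPM against 551 and 527 CPM, and Marco was above it at ratios of 1.103 and 1.08. Spp1, osteopontin, at 1.53 and 1.40, and the protease Ctsk at 1.35 and 1.36 were also above 1 in both libraries. These ratios compare shares of all UMIs, not UMIs per cell. Itgax, which encodes CD11c, had ratios of 0.762 and 0.791 but a mean of 5.09 and 6.01 UMIs per cycling cell against 4.56 and 5.28.

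**Figure D3:**
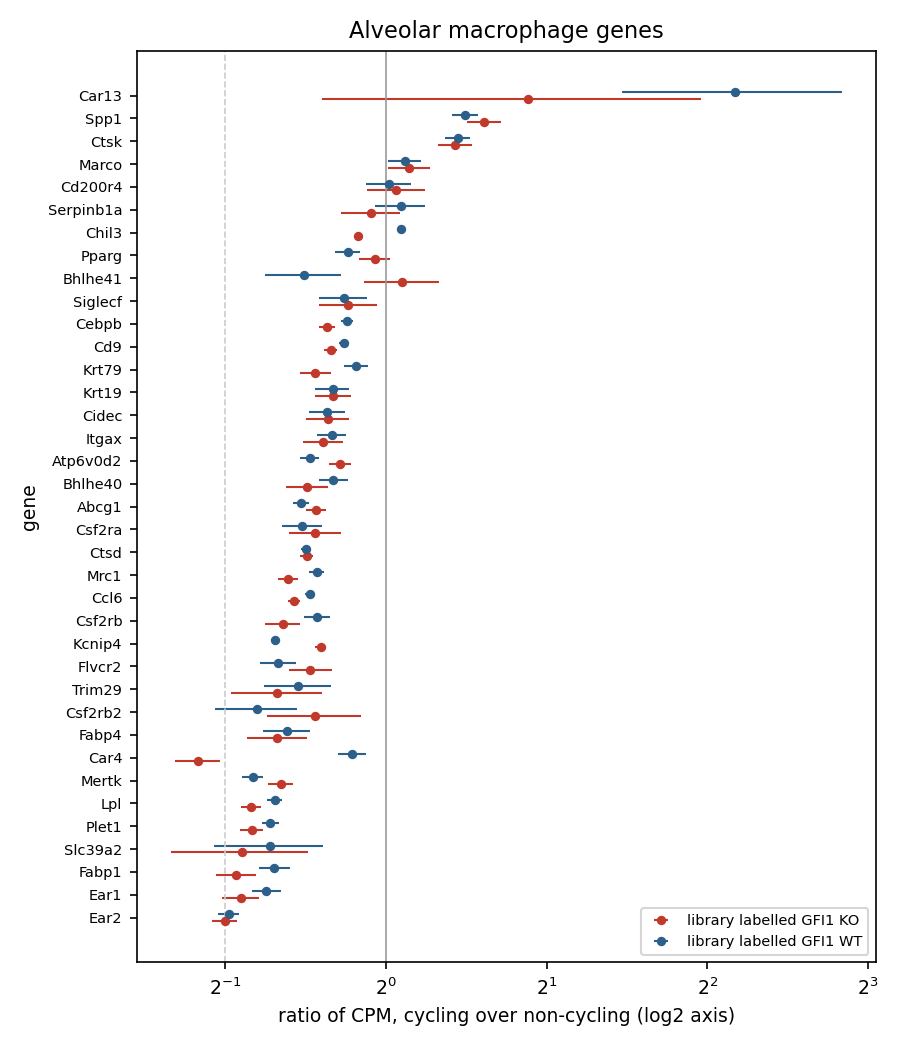
Ratio of CPM in cycling over non-cycling alveolar macrophages (log2 axis) for the 8 alveolar macrophage genes of the rule and the identity list, with 95% exact conditional binomial intervals, which cover counting error only. Red is the library labelled GFI1 KO and blue that labelled GFI1 WT; most points lie between 0.5 (dashed) and 1 (solid), with Ear2 at 0.499 and 0.507, Car4 at 0.444 and 0.864, and Spp1 and Ctsk above 1. Car13, at the top, rests on few UMIs, with 4.34 and 8.54 CPM in cycling cells, and Fbp1, with 0 UMIs in cycling cells in the KO-labelled library, is not drawn.

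The summed identity list was lower in cells with all 8 cycling genes than in those with none, at 18596 against 26893 CPM in the KO-labelled library and 19139 against 26144 CPM in the WT-labelled library, but its members differed. Ear2 was at 1522, 1363, 834 and 701 CPM in cells with 0, 1 to 3, 4 to 7 and 8 cycling genes in the KO-labelled library and at 1373, 1217, 740 and 660 CPM in the WT-labelled library. Calr, an endoplasmic reticulum chaperone outside the identity list, was at 792, 811, 400 and 252 CPM and at 787, 775, 424 and 362 CPM. Pparg was at 551, 546, 536 and 516 CPM with overlapping intervals in the KO-labelled library, where no order can be read, and at 527, 519, 460 and 435 CPM in the WT-labelled library. Marco was not lower in cells with 8 cycling genes than in cells with none, at 258, 314, 259 and 304 CPM and at 252, 251, 270 and 275 CPM. In the KO-labelled library it was lower in cells with 4 to 7 than in cells with 1 to 3 cycling genes. Chil3, a gene of the rule, was at 10547 CPM in cells with no cycling gene and 9451 CPM in cells with 8 in the KO-labelled library, and at 13898 and 15657 CPM in the WT-labelled library. Median depth differed with the number of cycling genes, from 13147 to 21516 UMIs per cell in the KO-labelled library, and its part in these levels was not tested.

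Receptors for growth signals were not higher in cycling cells. Of the GM-CSF receptor, Csf2rb was at 376 and 439 CPM against 587 and 590 CPM and Csf2ra at 183 and 184 CPM against 249 and 264 CPM. The M-CSF receptor gene Csf1r had ratios of 0.723 and 0.667. Their ligands were scarce in these cells, with Csf2 at 0 UMIs in cycling cells of both libraries and Csf1 at 0.542 and 5.92 CPM. Klf4 had ratios of 1.13 and 1.08, and Myc was on opposite sides of 1 in the libraries, at 0.841 and 1.28. Maf, at a low level, was at 8.67 and 12.2 CPM against 2.52 and 3.89 CPM. In all, 3 of 25 growth and self-renewal genes had a ratio above 1 in both libraries and 15 a ratio below 1 in both. Of all 11155 genes tested in both libraries, 47.7% were above and 30% below 1 in both. Maf was the 1 gene of the list past 2-fold in both, with ratios of 2.68 and 1.90 on 11 and 19 UMIs without its highest cell. The median ratio of the list was 0.814 and 0.817.

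Genes for lipid handling and inflammatory genes lay below the non-cycling level more often than above it. The counts are a description, to be set beside the 30% of all genes that were below 1 and the 47.7% that were above 1 in both libraries. Of 24 genes for lipid handling 19 had ratios below 1 in both libraries and 0 above, with a median of 0.763 and 0.830, and the lipid droplet gene Plin2 was at 1037 and 1085 CPM against 1454 and 1523 CPM. The scavenger receptor Cd36 had ratios of 0.616 and 0.638. Of 21 genes for cholesterol synthesis and uptake 13 were below 1 in both libraries and 4 above. Glycolysis was mixed, with 3 of 15 genes above and 6 below 1 in both, Pgk1 at 1.47 and 1.45 and Ldha at 0.733 and 0.815. Of 25 inflammatory and immediate-early genes 17 were below 1 in both libraries and 4 above. Cxcl2, a chemokine for neutrophils, was at 269 and 527 CPM against 743 and 888 CPM, and Junb at 464 and 603 CPM against 934 and 1012 CPM. Interferon-stimulated genes were mostly too scarce to compare, 6 of 14 having at least 30 UMIs in both libraries.

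Outside the genes of the rule, the 10 genes that stood highest in cycling cells by the interval bound nearer to 1 were Esco2, Ccna2, Hmmr, Pclaf, Pbk, Bub1, Nuf2, Neil3, Iqgap3 and Kif2c. Pclaf, a partner of PCNA, was at 638 and 626 CPM against 0.898 and 0.631 CPM, ratios of 710 and 991. Ccna2, cyclin A2, had 351 and 506 UMIs in cycling against 1 and 5 UMIs in non-cycling cells, ratios of 4449 (793 to 176227) and 1264 (538 to 3911). Bub1 had 0 UMIs in non-cycling cells in the KO-labelled library and was at least 887-fold higher in cycling cells. The 10 lowest were Tcp11l2, H2bc4, Ereg, Kdm5b, Mmp19, Aldoc, Ucp3, Slc7a8, Calr and Ear2. H2bc4, a histone H2B gene, was at 46.6 and 50.6 CPM against 205 and 181 CPM, opposite to most of the histone and chromatin genes above. Kdm5b, a histone H3K4 demethylase, was at 3.25 and 3.62 CPM against 17.1 and 18.2 CPM, and Ereg, a ligand of the EGF receptor, at 9.76 and 9.86 CPM against 40.3 and 47.4 CPM.

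Within the cycling cells, S phase and mitosis RNA differed from cell to cell. The S phase list made up a median of 31.2% and 26.0% of the UMIs of both lists, with a range of 0% to 87.9% in the KO-labelled library and 1.37% to 84.1% in the WT-labelled library. More S phase than mitosis UMIs were counted in 33 of 111 cells (29.7%, 21.4 to 39.1) and in 45 of 177 cells (25.4%, 19.2 to 32.5). This division is a point on a continuous range, and 21 and 30 cells had an S phase share between 40% and 60%. The lists differ in size and level, so the share does not give the time spent in a phase. The cells were also chosen by cycling genes. Alveolar macrophages with 3 cycling genes, which the rule left out, carried the S phase list at 2846 and 1251 CPM. They carried the mitosis list at 934 and 810 CPM. The part of the rule in the balance between the lists was not tested. Of the early genes Ccne1, Ccne2 and Cdc6 and the late genes Cdc20, Plk1 and Ccnb1, 51 of 111 and 66 of 177 cells held both kinds, 16 and 23 only the early ones, 37 and 67 only the late ones, and 7 and 21 neither. The plot of both lists cell by cell shows this range.

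**Figure D4:**
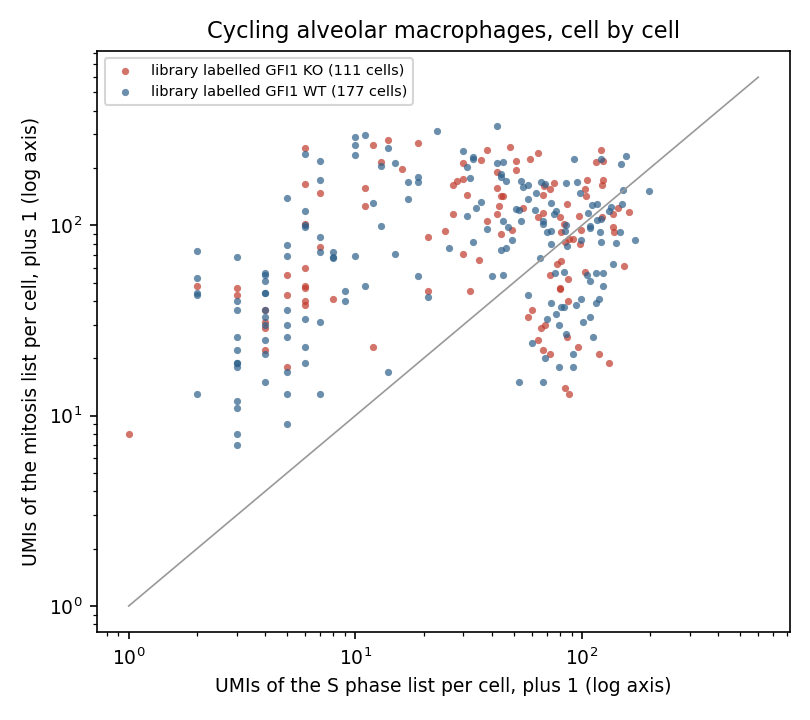
UMIs of the 26-gene S phase list (x axis) and the 30-gene mitosis list (y axis) in each cycling alveolar macrophage, plus 1, both on log axes, with the line of equal UMIs in grey. Red dots are the 111 KO-labelled and blue dots the 177 WT-labelled cells; cells of both libraries cover the same area, a group with few S phase and many mitosis UMIs at the left and 33 and 45 cells below the line at the right.

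Genes outside both lists differed between the 2 sides of this division. Fabp1 was at 503 and 518 CPM in cells with more S phase UMIs and at 216 and 216 CPM in those with more mitosis UMIs, Marco at 439 and 385 CPM against 224 and 229 CPM, and Calr at 478 and 539 CPM against 254 and 331 CPM. These 3 genes were higher where S phase UMIs prevailed, in both libraries. Pparg was at 395 and 364 CPM against 575 and 479 CPM, the opposite order. Cdkn2d was at 52.3 and 27.8 CPM where S phase prevailed and at 102 and 95.9 CPM where mitosis did, and Cdkn1a hardly differed at 769 and 723 against 771 and 807 CPM. Of the genes of the rule, given as a description, Plet1 was at 1314 and 1381 CPM where S phase prevailed against 793 and 958 CPM, and Chil3, a chitinase-like secreted protein, at 8706 and 15089 CPM against 9604 and 14738 CPM.

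Protein tags gave a readout that the rule did not use. The CD11c tag had higher counts in cycling cells, with medians of 1307 and 1301 UMIs per cell against 998 and 901, ratios of 1.31 and 1.44. The CD45 tag, a marker of leukocytes, differed less, with medians of 1816 and 1702 against 1670 and 1483.5, ratios of 1.09 and 1.15. Other tags had higher counts too, and in the WT-labelled library the ratio of medians was 1.59 for CD196, 1.58 for CD127 and 1.69 for CD335, at medians of 35, 19 and 22 UMIs in cycling cells. As a share of all tag UMIs, CD11c was at 38.7% and 38.7% in cycling against 36.1% and 35.1% in non-cycling cells. CD11c over CD45 within a cell had a median of 0.690 and 0.751 in cycling, 0.636 and 0.624 in cells with 1 to 3 cycling genes, and 0.602 and 0.610 in non-cycling cells. CD11b, an integrin low on resting alveolar macrophages, stayed low, with medians of 6 and 5 against 4 and 4 UMIs. A control antibody, RTK2758, gave medians of 1 and 8 in cycling and 1 and 5 in non-cycling cells, so tag background differed between libraries, and in the WT-labelled library also between the groups of cells.

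Markers of other cell types were present in a few cycling cells. At least 3 markers of 1 other cell type, or at least 50 UMIs of S100a8 and S100a9, were found in 5 of 111 cells (4.50%, 1.48 to 10.2) and 20 of 177 cells (11.3%, 7.04 to 16.9), against 0.776% and 5.41% of non-cycling cells. The lists screened were those of interstitial macrophages, T and NK cells, B cells, endothelial cells, fibroblasts and dendritic cells. Cx3cr1, Cd2, Pecam1 and Clec9a were left out of them, and monocyte and epithelial markers were not screened. Doublets were kept, and the doublet caller Scrublet marked 5.41% and 5.08% of cycling against 4.99% and 4.62% of non-cycling cells. The summed level of 10 interstitial macrophage markers was 172 and 105 CPM against 14.9 and 47.4 CPM, C1qa being the most abundant at 54.7 and 26.3 CPM and Lyve1 and Folr2 being at 0 in the KO-labelled library. All 101 C1qa UMIs in the KO-labelled library lay in 1 cell. The 10 neutrophil and granule markers summed to 1234 and 421 CPM against 224 and 445 CPM, and 977 of the 1005 S100a8 UMIs in the KO-labelled library lay in 1 cell that had 4 alveolar macrophage and 8 cycling genes. Without the cells with such markers the S100a8 ratio in that library was 0.513. The 7 dendritic cell markers summed to 16.8 and 138 CPM against 18.9 and 43.1 CPM, and the 6 endothelial markers to 5.96 and 80.2 CPM against 11.8 and 46.8 CPM, with Cdh5, Kdr, Ramp2 and Egfl7 at 0 in the KO-labelled library. The 6 fibroblast markers summed to 0 and 11.2 CPM against 0.599 and 74.1 CPM in non-cycling cells, the 8 epithelial markers to 101 and 187 CPM against 149 and 781 CPM, and the 6 B cell markers to 13.01 and 26.3 CPM against 8.55 and 28.6 CPM. The 9 T and NK cell markers summed to 227 and 272 CPM, of which Cd2 made 195 and 190 CPM, against 236 and 230 CPM, and the 8 monocyte markers to 910 and 997 CPM, of which Fn1 made 625 and 895 CPM, against 1151 and 1030 CPM.

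Between the labels, few genes differed by 2-fold in cycling cells. Of 9590 genes tested 0.824% were at least 2-fold higher and 2.44% at least 2-fold lower in the KO-labelled library, and in non-cycling cells 0.754% and 7.56% of 12740 were. These numbers moved with the exclusion genes, since with the cells carrying them kept 74 genes were higher and 566 lower in cycling cells, against 79 and 234. The S phase, mitosis and chromatin lists were higher in the KO-labelled library, with 26 of 26, 29 of 30 and 24 of 24 genes at a ratio above 1. Their medians were 1.18, 1.19 and 1.18, against 55.2% above 1 and a median of 1.02 over all genes. In number past 2-fold they held 1, 0 and 0 genes. In non-cycling cells their medians were 0.979, 0.909 and 1.103, and of all genes 45.1% were above and 54.9% below 1. Genes of these lists were high together in cells chosen by cycling genes, so the counts are not independent agreements. All 8 cycling genes were detected in 49.5% and 46.3% of cycling cells, and markers of other cell types were found in 4.50% and 11.3%. The part of these differences in the list ratios was not tested. The list of cell cycle regulators was not higher in cycling cells, with 13 of 28 genes above and 15 below 1 and a median of 0.990. Pcna, the DNA polymerase clamp, was at 651 against 602 CPM and Cdk1, the kinase of mitotic entry, at 243 against 224 CPM, ratios of 1.08 (1.00 to 1.16) and 1.09 (0.963 to 1.23). Of 30 identity genes 13 were above and 17 below 1, with a median of 0.990, while Chil3 was at 9353 CPM in the KO-labelled library and 14837 CPM in the WT-labelled library, a ratio of 0.630 (0.619 to 0.641) in cycling and 0.759 in non-cycling cells. Car4, a carbonic anhydrase, had a ratio of 0.637 (0.567 to 0.713) in cycling but 1.24 in non-cycling cells.

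Genes of MHC class II, which present antigen, were all 7 lower in cycling cells in the KO-labelled library, and their summed level was 515 against 2736 CPM. H2-Aa was at 36.9 against 448 CPM, a ratio of 0.0822 (0.0635 to 0.105), with a UMI in 24 of 111 against 84 of 177 cells. In non-cycling cells the ratio was 0.532. The 4 highest cells held 50.1% of the H2-Aa UMIs in the WT-labelled library, B cells had 3898 and 3379 CPM of it, and without the cells carrying markers of other types the ratio in cycling cells was 0.148. Over the 14 alternatives it lay between 0.0776 and 0.189, the highest without the deepest 1% of alveolar macrophages. The part of other cell types and of free RNA in this difference was not tested further. Inflammatory genes were below 1 for 23 of 25, against 44.8% of all genes, with a median of 0.738 in cycling and 0.930 in non-cycling cells, Cxcl2 being at 269 against 527 CPM and Tnf at 66.7 against 112 CPM.

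Of the 10 genes chosen as highest in the KO-labelled library, Plac8, also a monocyte marker, was at 107 against 3.29 CPM, with a UMI in 19 of 111 and 8 of 177 cells, a ratio of 32.7 (17.4 to 69.1) in cycling and 6.83 in non-cycling cells. Over the 14 alternatives the ratio lay between 4.79 and 46.8 in cycling and between 3.43 and 7.03 in non-cycling cells, the lowest in cycling cells with the cells carrying an exclusion gene kept. Ifitm3, an antiviral membrane protein, was at 106 against 17.4 CPM, a ratio of 6.07 (4.46 to 8.38) in cycling and 3.68 in non-cycling cells. It was also higher in the KO-labelled library in other cycling lung cells, at 1385 against 169 CPM, and in B cells, at 560 against 115 CPM, and the 8 monocyte markers summed to 5039 against 1216 CPM over all lung cells. The part of free RNA and of other cell types in these label ratios was not tested. Several of the others rested on few cells. Saa3, a serum amyloid gene, had 55 UMIs, 33 of them in 1 cell, against 0, and was at least 30.2-fold higher. Prtn3, a granule protease, had 30 UMIs, 25 in 1 cell, against 0, at least 16.5-fold. Ly6c2 had 48 of 65 and Atl1 35 of 40 UMIs in 1 cell, and Ifitm6, Ly6a2, Vcan and Hp had 38, 36, 27 and 76 UMIs in all.

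Of the 10 lowest in the KO-labelled library, Fbp1, a gluconeogenic enzyme, had 0 UMIs against 154 UMIs in 11 cells and was at least 31.1-fold lower. It was scarce in non-cycling cells in that library too, with 0.0855 against 26.7 CPM. Mmp12, a macrophage elastase, was at 2.17 against 57.8 CPM, a ratio of 0.0375 (0.0101 to 0.0977), and 0.0538 in non-cycling cells. Dcstamp, a fusion protein of macrophage lineages, had 0 against 60 UMIs in 9 cells and was at least 12.1-fold lower. Retnla had 0 against 257 UMIs, 253 of them in 1 cell, and Ccl22 had 3 against 136 UMIs, 124 of them in 1 cell that also held 67 of the 74 Ccr7 UMIs. Aff3, Chst11 and Fmnl2 had 1, 1 and 2 against 125, 115 and 116 UMIs, ratios of 0.0132 (0.000331 to 0.0749), 0.0143 (0.000360 to 0.0815) and 0.0284 (0.00340 to 0.105). In the WT-labelled library these UMIs lay in 18, 12 and 12 of 177 cells, with 40, 44 and 55 in 1 cell, and the ratios in non-cycling cells were 0.176, 0.208 and 0.139. Aff3 was at 1400 and 2009 CPM in B cells. The remaining members, H2-Eb1 and H2-Aa, belong to MHC class II. Igf1, a growth factor of the self-renewal list, was at 11.4 against 75.9 CPM, with a UMI in 15 of 111 and 47 of 177 cells, a ratio of 0.150 in cycling and 0.312 in non-cycling cells. Over the 14 alternatives it lay between 0.121 and 0.366 (thinned) in cycling and between 0.289 and 0.336 in non-cycling cells, so no order of these 2 ratios can be read. The plot of label ratios with and without particular cells shows which of these values moved.

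**Figure D5:**
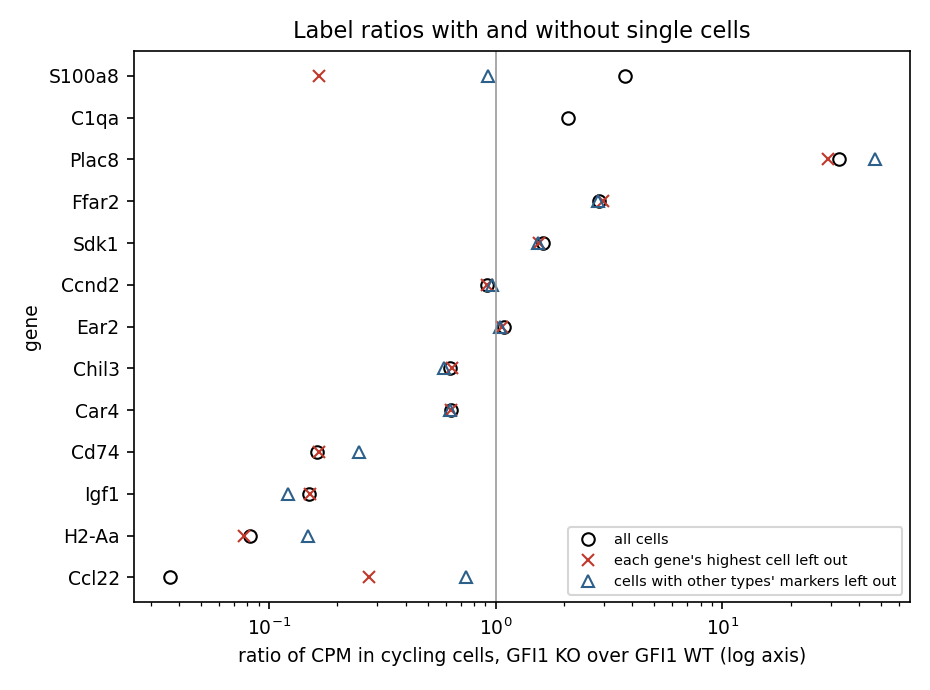
Ratio of CPM in cycling alveolar macrophages in the KO-labelled library over the GFI1 WT label (log axis) for 13 genes, with all cells (circles), without each gene's highest cell in each library (crosses) and without cells carrying markers of another cell type (triangles); values of 0 are not drawn. Chil3, Car4, Ear2 and Ccnd2 hardly moved and H2-Aa lay between 0.0776 and 0.148 in these 3 settings, while S100a8 went from above 1 to 0.167 and 0.925 and Ccl22 from 0.0364 to 0.275 and 0.736. The screen for other cell types did not cover monocyte or epithelial markers.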

How the data were processed

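For each of the 2 lung libraries the authors deposited a matrix of UMI counts, not normalized, with genes and antibody tags against called cells. The submitters' processing notes name Cell Ranger 9.0.1 and the builds GRCm39 and mm39; doublet or free RNA removal is not given in the sources used here. Cells with at least 500 UMIs, 200 genes and at most 20% mitochondrial UMIs were kept. The 9537 ribosomal, mitochondrial and Gm- genes, with 18.9% of UMIs in the KO-labelled library and 16.4% in the WT-labelled library, were left out of levels. B cells used as background had 3 of 4 B cell genes.

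Counts were summed per library and class. Levels have exact Poisson intervals, ratios exact conditional binomial intervals, shares Clopper-Pearson intervals and differences of shares square-and-add intervals, all at 95%. Genes with at least 30 UMIs over the 2 groups compared were tested against a fold of 2, with 1 library per label and so with no statistical test. Where a count was 0, a bound uses 3 UMIs over the group. The members and the gene lists were chosen with earlier results of these data known. Named genes were those of the rule, the lists, and the 10 highest and 10 lowest by the interval bound nearer to 1 for cycling over non-cycling cells (the weaker library) and for the labels in cycling cells. Thinning to 5000 UMIs left out shallower cells, 0 and 4 of the cycling cells; since thinning also removes UMIs of the exclusion genes, it can add cells to the denominator. Alternatives were other thresholds of the rule, Scrublet, thinning, very deep cells left out, other denominators, filters and folds, and, chosen after seeing the data, each gene's highest cell or cells with markers of other types left out, or cells with an exclusion gene kept. Python 3.11.15, numpy 2.4.6, scipy 1.17.1, pandas 2.3.3, Scanpy 1.11.5 and matplotlib 3.10.9 were used, and the scripts were tested on simulated data. A few genes of the lists are not reported here by name.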

Additional observations from a re-analysis of the deposited data

Results flagged for a closer look

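In 5 genes of the lists other than the markers of other cell types, the ratio of cycling over non-cycling alveolar macrophages lay on opposite sides of 1, by at least 1.5-fold each way, in the 2 libraries. They were H2-Aa at 0.268 in the KO-labelled library and 1.73 in the WT-labelled library, H2-Ab1 at 0.361 and 1.85, H2-Eb1 at 0.268 and 2.34, Ciita, the activator of MHC class II genes, at 0.615 and 1.59, and the interferon-stimulated gene Oas1a at 0.388 and 2.13. Among the markers of other cell types, Ly6c2 at 1.74 and 0.235 and Ccl22 at 0.280 and 3.49 did so too, with 48 of the 65 Ly6c2 UMIs of the KO-labelled library in 1 cell. These differences between the libraries were not tested. For H2-Aa the value in the WT-labelled library was 1.00 without Scrublet calls, 0.840 without the deepest 1% of alveolar macrophages and 1.07 without cells carrying markers of other types, while that in the KO-labelled library stayed between 0.225 and 0.384 in all 14 alternatives. Oas1a rested on 1.63 CPM in the KO-labelled library and 7.23 CPM in the WT-labelled library in cycling cells.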

How the results depend on the processing

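The share of alveolar macrophages that cycled lay between 3.56% and 5.11% in the KO-labelled library and between 3.48% (thinned) and 5.27% (with cycling plus non-cycling cells as denominator) in the WT-labelled library in 9 alternatives, and the difference between -0.632 and 0.123 percentage points. The numbers of genes past 2-fold moved with the filter and the fold. In the order cycling against non-cycling in the KO-labelled library, in the WT-labelled library, labels in cycling cells and labels in non-cycling cells, they were 1145, 1247, 84 and 395 with at least 100 UMIs, 5061, 5371, 2493 and 3762 with no filter, and 3503, 3897, 940 and 1628 at a fold of 1.5. After thinning, 1267 genes were higher and 777 lower in cycling cells of the KO-labelled library, against 1301 and 453 as reported. The labels differed past 2-fold in 154 genes of cycling and 552 of non-cycling cells after thinning, in 192 and 650 without cells carrying markers of other types, and in 640 and 1608 with cells carrying an exclusion gene kept. Of the followed ratios past 2-fold, those of 4 genes crossed 1. Ratios nearer 1 crossed it as well, such as those of cycling over non-cycling cells of H2-Aa (down to 0.840) and Cd74 (down to 0.856) in the WT-labelled library and of Plac8 (up to 1.84) in the KO-labelled library. S100a8 in cycling over non-cycling cells in the KO-labelled library was 0.239 with at least 5 alveolar macrophage genes, 0.304 thinned, 0.223 without its highest cell and 0.513 without cells carrying other markers, and over the labels 0.169, 0.0727, 0.167 and 0.925. C1qa was 0 in both comparisons without Scrublet calls, its highest cell or cells with other markers. Ccl22 in the WT-labelled library was 0.382 without Scrublet calls, 0.143 thinned, 0.393 without the deepest cells, 0.460 without its highest cell and 0.369 without other markers, and Retnla 0.306, 0.194 and 0.133 in the last 3 of these. Leaving out the highest cell takes 1 of 111 or 177 cycling but 1 of 2063 or 3182 non-cycling cells and so weighs unequally. No paired analysis was possible because each label has 1 library, which also means that no library could be left out. Genes under about 30 UMIs in cycling cells are limited by depth.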

Other observations

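Sdk1, an adhesion molecule of the immunoglobulin superfamily known from synapses, was outside the rule for named genes and was chosen after its values were seen. It was at 413 CPM in the KO-labelled library and 257 CPM in the WT-labelled library in cycling alveolar macrophages, against 0.513 and 1.47 CPM in non-cycling ones. A Sdk1 UMI was found in 81 of 111 cells (73.0%, 63.7 to 81.0) and 116 of 177 cells (65.5%, 58.0 to 72.5), against 0.436% and 0.943% of non-cycling cells. Other cycling lung cells had it in 7.44% and 28.0% of cells, at 7.20 and 83.4 CPM. Within cycling alveolar macrophages it was at 629 and 404 CPM in cells with all 8 cycling genes and at 137 and 78.95 CPM in those with 4 to 7, and at 505 and 302 CPM where mitosis UMIs prevailed against 178 and 143 CPM where S phase UMIs did. Without each library's highest cell the GFI1 KO over GFI1 WT ratio was 1.55 (1.39 to 1.72).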
